A study of Drosophila melanogaster with 16 samples.

Results

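Naïve embryos that expressed tcf∆N-short, a shortened form of the Drosophila transcription factor TCF, were compared with WT naïve embryos that expressed no transgene. The comparison used 4 of the 16 arrays of the series, 2 of tcf∆N-short and 2 of WT, chosen by their genotype labels, and every gene with a probeset assigned to 1 gene. Of 11899 such genes, 8866 had a log2 expression value above 2.5 in at least 2 arrays and were tested. tcf∆N-short embryos were laid by mothers carrying bcd (allele E1), nos (allele L7) and tsl (allele tsl146), recombined with the ubiquitous driver da-Gal4, and crossed to UAS-tcf∆N-short with 3 copies of the HA tag, inserted at the attP2 site. WT embryos are described as naïve embryos without expression of a transgene, and whether their mothers carried da-Gal4 is not given in the sources used here. Each array held RNA of about 50 pooled whole embryos aged roughly 4 to 16 h, so a lower level cannot be told apart from fewer cells of a type. Embryos of 2 further genotypes were also compared with tcf∆N-short: tcf∆N-long, and arm∆N-tcf∆N-short, in which UAS-arm∆N, an active form of Armadillo, is present beside UAS-tcf∆N-short. The remaining genotypes carried other transgenes: arm∆N alone, Wg++ (Wingless overexpressed), DisArmed (a dominant negative Armadillo) and Otk++ (Otk overexpressed). They served for levels across genotypes. All 16 arrays of the 8 genotypes were fitted together, so every genotype shared in the estimate of the spread.

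TCF, encoded by pan, is the DNA-binding protein at the end of the Wnt pathway. Without signal it represses target genes together with Groucho, and when the ligand Wingless stabilises Armadillo, the fly β-catenin, TCF and Armadillo activate them. tcf∆N-short lacks the Armadillo-binding region, the Groucho-binding sequence and the C-clamp, another DNA contact, but keeps the HMG domain that binds DNA. tcf∆N-long lacks only the Armadillo-binding region. In the embryonic epidermis Wingless is known for patterning the segments and for setting where smooth cuticle or denticles form.

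pan had log2 values of 10.67 and 10.94 in the 2 tcf∆N-short arrays, against 4.60 and 5.36 in the WT arrays. The levels did not overlap, and the log2 fold change of 5.83 had a standard error of 0.31 (adjusted p = 3.75e-06, limma with Benjamini-Hochberg adjustment, which also gives every later standard error and adjusted p). tcf∆N-long arrays read 10.98 and 11.21. The difference of tcf∆N-short minus tcf∆N-long was -0.29 (standard error 0.31, adjusted p = 0.726), so the pan probeset showed no called difference between the embryos with either transgene. Both transgenes are themselves shortened forms of pan, so this probeset may read transgene RNA. A change of the gene's own transcript cannot be told apart from it.

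Across all genes, 689 passed a fold change above 1.5 at a false discovery rate under 10%, which is 7.77% of those tested. Of these, 225 were higher in tcf∆N-short (2.54%) and 464 were lower (5.23%), while the median log2 fold change of all genes was 0.002. After cyclic loess normalisation between the arrays 223 were higher and 308 lower. The median size was 1.83 among the higher genes and 1.37 among the lower genes on the log2 scale. The lowest value in the file is 2.289, and a group mean under 3 lies near it, so a fold change against such a mean is only a lower bound. That held for WT in 75 of the 225 higher genes and for tcf∆N-short in 91 of the 464 lower genes. The tcf∆N-short and WT arrays did not overlap in any of the called genes. A call at these thresholds makes that likely, so it adds no separate support. Of all tested genes, 95 passed the expression filter only through the 4 arrays with tcf∆N-short, alone or with arm∆N, and 20 of the 225 higher genes were among them.

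**Figure D1:**
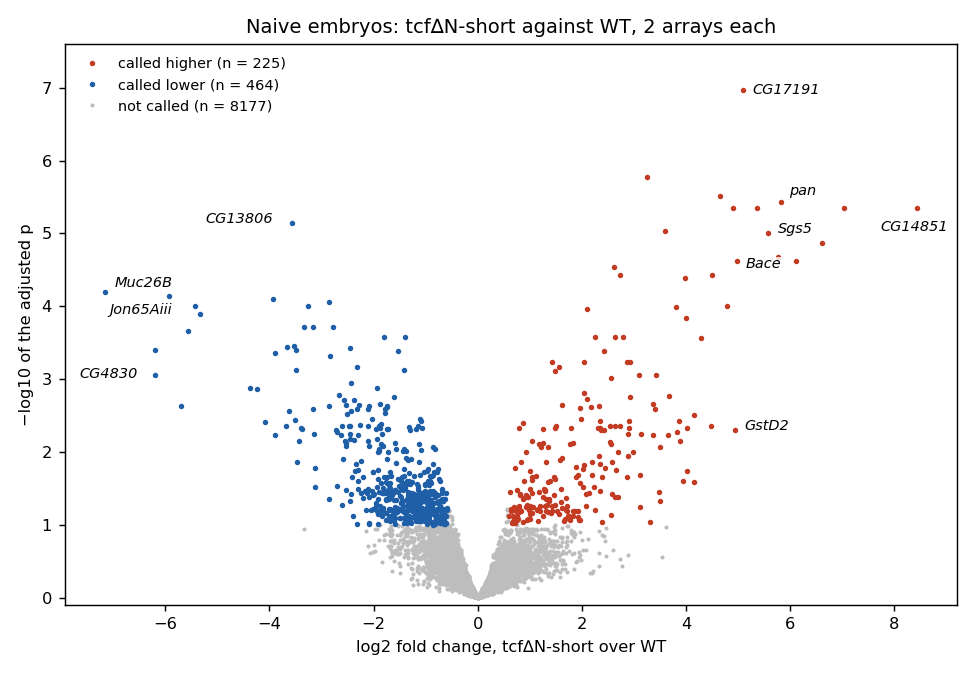
The log2 fold change of tcf∆N-short over WT (horizontal) is plotted against −log10 of the adjusted p (vertical) for the 8866 genes tested, with genes called higher in red, called lower in blue and not called in grey. CG14851 and CG11300 lie farthest to the right, Muc26B farthest to the left, and 464 called genes lie on the left against 225 on the right.

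The falls leaned on one array. Among the 464 lower genes, the median difference from the WT mean was -1.54 in tcf∆N-short replicate 1 and -1.17 in replicate 2, and 371 of them differed more in replicate 1. The rises leaned towards the other array. Among the 225 higher genes the medians were 1.71 in replicate 1 and 2.04 in replicate 2, and 74 differed more in replicate 1. Without tcf∆N-short replicate 1, 151 genes were called higher and 121 lower, and 119 of the 464 falls were still called. Without tcf∆N-short replicate 2 the counts were 297 and 549, without WT replicate 1 they were 153 and 256, and without WT replicate 2 they were 333 and 432. Of the called genes, 103 of 225 rises and 113 of 464 falls were called in all 4 of these fits, among them each of the 15 largest rises and the 15 largest falls.

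Among the 4 arrays of tcf∆N-short and WT, tcf∆N-short replicate 1 also had the highest average in genes whose mRNA the mother supplies. The 23 tested maternal axis and germ plasm genes averaged log2 values of 7.51 and 6.41 in the tcf∆N-short arrays, against 6.32 and 5.82 in the WT arrays. osk, which organises the germ plasm, read 9.04 and 6.35 in tcf∆N-short, against 3.43 and 4.73 in WT. Over the 12 arrays of the series without tcf∆N-short, osk ranged between 3.43 and 8.16. It was not called, at 3.61 with a standard error of 1.13 (adjusted p = 0.109). Of the 23 genes, 0 were called higher and tsl was called lower, at -1.36 (adjusted p = 0.0855, but 0.526 without tcf∆N-short replicate 1 and 0.368 without WT replicate 1). In the fit that lacked tcf∆N-short replicate 2, 8 of the 23 were called higher. The 16 neuron function genes, none of them called (lowest adjusted p 0.252, 2 with an unadjusted p under 0.05 in limma), averaged 5.71 and 6.57 in tcf∆N-short, against 5.78 and 6.08 in WT. The part of these levels in the falls was not tested.

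**Figure D2:**
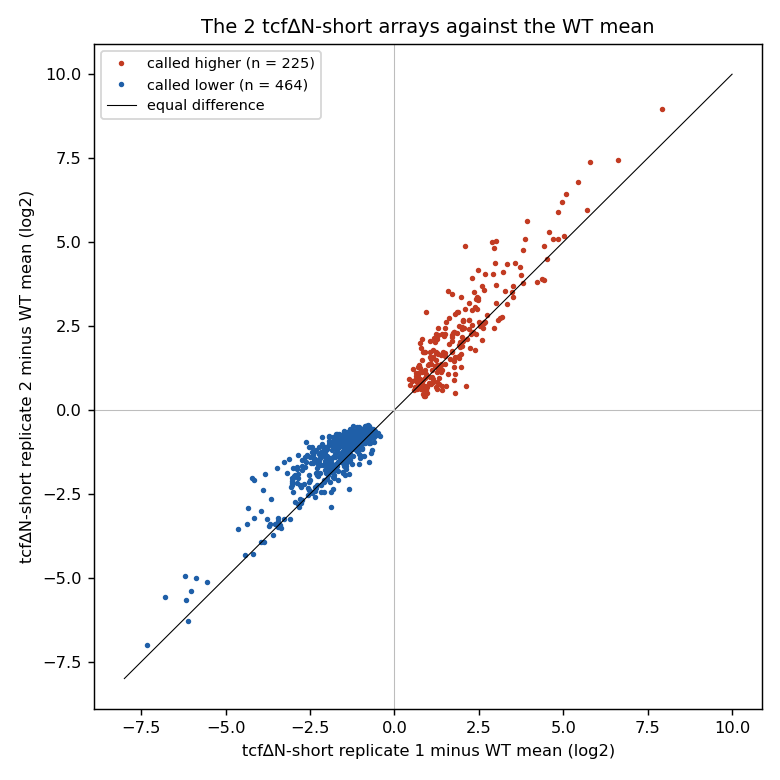
Each point is 1 of the 689 called genes, with its log2 difference from the WT mean in tcf∆N-short replicate 1 (horizontal) and in replicate 2 (vertical), and the line marks equal differences. Most genes called lower lie above the line, since 371 of 464 differed more in replicate 1. Most genes called higher also lie above it, since only 74 of 225 differed more in replicate 1.

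Several of the largest rises were in genes at or near the lowest value in WT, while Bace, Prx6c and pan were at 4.60 or more in both WT arrays. CG14851 read 10.39 and 11.44 in tcf∆N-short, against 2.60 and 2.36 in WT, a log2 fold change of 8.43 with a standard error of 0.49 (adjusted p = 4.42e-06). CG11300 read 9.53 and 10.35 in tcf∆N-short, against 2.61 and 3.21 in WT (log2 fold change 7.03, adjusted p = 4.42e-06). CG13445, CG31698, Jig and CG10853 rose in the same way, by 6.60, 6.11, 5.77 and 4.78, with all WT values between 2.29 and 2.47. In these 6 genes the tcf∆N-short arrays lay far above a WT level close to the lowest value. CG13445, CG31698, Jig and CG10853 passed the expression filter only through arrays with tcf∆N-short, alone or with arm∆N.

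Salivary glue genes, whose products the larva uses to attach the pupal case, belong to the same group. Sgs5 read 7.26 and 8.48 in tcf∆N-short, against 2.29 in both WT arrays (log2 fold change 5.58, adjusted p = 1e-05). Its neighbour Sgs5bis read 7.12 and 8.19, against 2.29 in both WT arrays (5.36, adjusted p = 4.42e-06). Sgs4 read 4.09 and 5.15, against 2.30 in both WT arrays (2.32, adjusted p = 0.0113). Of 20 listed salivary gland genes 19 were on the array and 12 were tested, of which Sgs5, Sgs4 and Sgs7 rose and 5 fell, with a median log2 fold change of -0.94. Sgs5 and Sgs4 passed the expression filter only through arrays with tcf∆N-short, so the count of rises depends on the rises themselves. The 5 that fell do not encode glue. PH4alphaSG1, a prolyl hydroxylase of the gland, read 3.07 and 3.22 in tcf∆N-short, against 4.98 and 5.19 in WT (-1.94, adjusted p = 0.00134), and the sulfotransferase gene pip read 2.69 and 3.52, against 5.65 and 5.77 in WT (-2.60, adjusted p = 0.00442). sage, which encodes a transcription factor of the gland, read 3.68 and 4.29 in tcf∆N-short, against 4.96 and 4.85 in WT (-0.92, adjusted p = 0.0218), but at -0.62 its adjusted p was 0.163 without tcf∆N-short replicate 1, and at -0.87 it was 0.107 without WT replicate 1. Without tcf∆N-short replicate 1, 3 members rose and 2 fell, without tcf∆N-short replicate 2 the counts were 2 and 6, and without WT replicate 1 and WT replicate 2 they were 3 and 3, and 2 and 3.

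**Figure D3:**
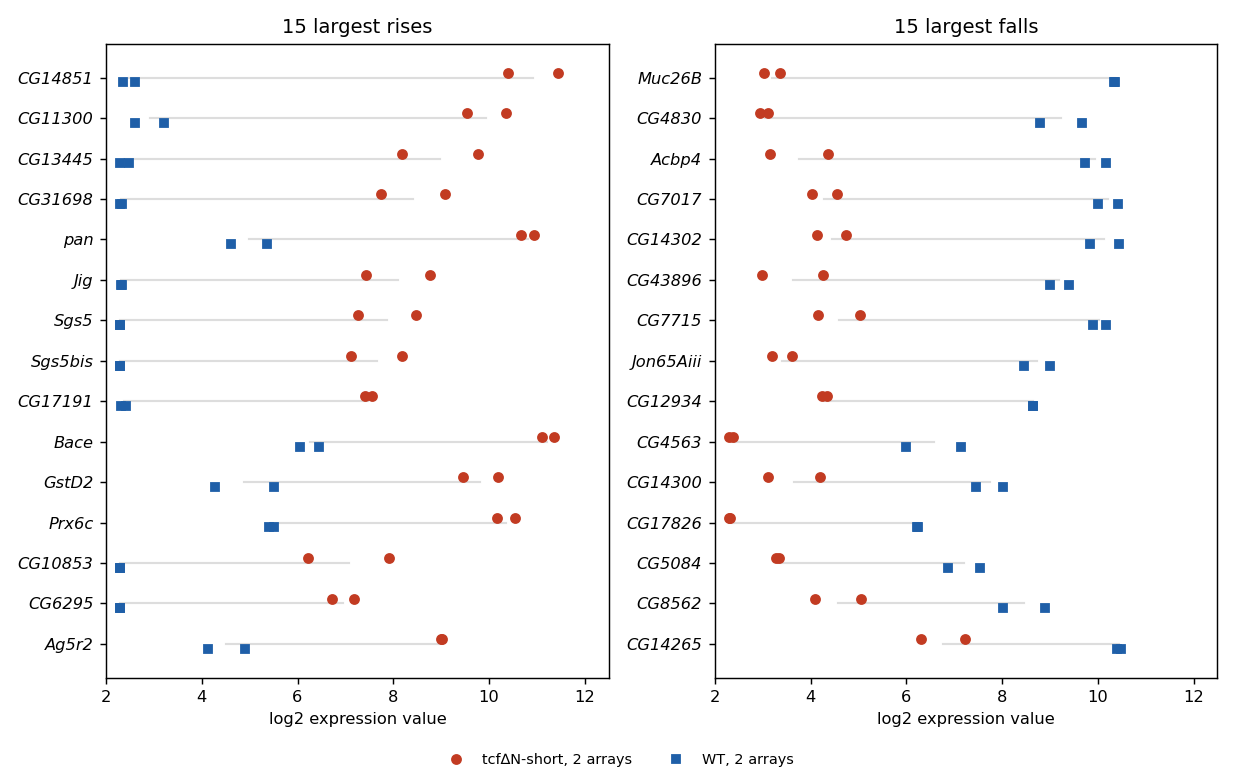
Log2 expression values in single arrays of the 15 genes with the largest rises (left) and the 15 with the largest falls (right), with tcf∆N-short as red circles, WT as blue squares and a grey line between the means. Only genes whose 2 groups did not overlap were eligible, so in each gene the 2 groups are apart by selection. Several of the rises, such as CG14851 (2.60 and 2.36 in WT) and Sgs5 (2.29 in both), have WT values near the lowest in the file.

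Most of the tested genes for digestion of sugars and fats rose. Of 9 tested maltases, which split sugars in the gut, 6 rose and 0 fell, where 2.54% of all tested genes rose. The median log2 fold change of the 9 was 1.92. Mal-A4 read 9.21 and 8.74 in tcf∆N-short, against 5.61 and 4.04 in WT (4.15, adjusted p = 0.00314). Mal-A1 read 9.02 and 9.29, against 6.19 and 5.32 in WT (3.40, adjusted p = 0.00255). Of 9 tested amylases and lipases, 6 rose, all of them lipases, and Lip1 fell by 1.86 (adjusted p = 0.00771). CG8093, 1 of the 6, passed the expression filter only through arrays with tcf∆N-short. The predicted lipase CG17191 had the lowest adjusted p of all genes, 1.08e-07, with 7.40 and 7.55 in tcf∆N-short, against 2.42 and 2.32 in WT (5.10, standard error 0.17). A second predicted lipase outside that list, CG6295, read 6.71 and 7.18, against 2.29 in both WT arrays (4.66, adjusted p = 3.04e-06). mag, which encodes a lipase of the gut, read 5.15 in both tcf∆N-short arrays, against 3.53 and 2.69 in WT (2.04, adjusted p = 0.00157). The 6 lipase rises were called whichever of the 4 arrays was left out.

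Proteases of the gut went both ways. Bace, an aspartic protease gene of the midgut, read 11.10 and 11.35 in tcf∆N-short, against 6.45 and 6.06 in WT (4.97, adjusted p = 2.4e-05). Of 11 tested Jonah genes, which encode secreted serine proteases of the gut, 4 rose and 1 fell. Jon99Ci read 7.09 and 6.69, against 3.40 and 2.35 in WT (4.02, adjusted p = 0.00466), whereas Jon65Aiii read 3.19 and 3.61, against 9.01 and 8.46 in WT (-5.34, adjusted p = 0.000129). Those 2 calls held without any of the arrays, while Jon99Fi, at 4.15 (adjusted p = 0.0263), was not called without tcf∆N-short replicate 1 (3.88, adjusted p = 0.166). Without that array 1 Jonah gene rose, and without either tcf∆N-short replicate 2 or WT replicate 2 it was 2. Of 9 tested trypsin genes, lambdaTry rose by 1.79 (adjusted p = 0.00466), where 2.54% of all tested genes rose. The 8 tested midgut markers averaged 6.85 and 7.35 in tcf∆N-short, against 6.54 and 6.19 in WT, with Bace and Mal-A1 higher and Vha100-4, a proton pump subunit, lower at -2.53 (adjusted p = 0.00819). 0 of 9 midgut fate regulators were called, where 7.77% of all tested genes were, and 3 had an unadjusted p under 0.05 in limma. GATAe, the endodermal GATA factor gene, had the lowest log2 fold change of the 9 at -0.96.

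Most tested genes of the D and E classes of glutathione S-transferases, which serve detoxification, rose, many of them side by side on the chromosome. Of 24 tested GstD and GstE genes, 15 rose and GstE11 fell, by 1.04 (adjusted p = 0.0359, but between 0.107 and 0.132 in the fits that lacked either tcf∆N-short array or WT replicate 2), with a median log2 fold change of 0.99. GstD2 read 9.46 and 10.18 in tcf∆N-short, against 5.50 and 4.27 in WT (4.94, adjusted p = 0.00498). GstD10 read 7.04 and 6.97, against 4.51 and 4.22 in WT (2.64, adjusted p = 0.000266), and GstD1 read 11.70 and 11.56, against 10.07 and 10.04 in WT (1.58, adjusted p = 0.0129). GstD8 and GstD11 were not called, at -0.11 and -0.28. The 9 rises among GstD genes formed 1 run of 9 adjacent tested genes on 3R. GstD6, 1 of the 9, averaged 3.13 in tcf∆N-short, against 2.34 in WT. It passed the expression filter only through arrays with tcf∆N-short, so it entered these counts of rises through its own rise. Probes of such close relatives can bind each other's RNA, so the levels of single family members are uncertain. Without WT replicate 2, 10 of the 24 rose, and GstD7, at 2.26, was not called in any of the 4 fits that lacked an array (adjusted p between 0.114 and 0.26). Prx6c, which encodes a peroxiredoxin, read 10.16 and 10.54 in tcf∆N-short, against 5.50 and 5.40 in WT (4.90, adjusted p = 4.42e-06), the 1 rise among 22 other glutathione and redox genes. Of 62 tested cytochrome P450 genes 5 rose and 3 fell, with a median of 0.10, and 6 fell without WT replicate 2. Among all tested genes 2.54% rose and 5.23% fell, so the P450 falls lie near that share. Cyp28d2 read 10.07 and 10.28, against 7.86 and 7.89 in WT (2.30, adjusted p = 0.0047), and Cyp304a1 read 2.98 and 3.50, against 6.58 and 6.93 in WT (-3.51, adjusted p = 0.00368).

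Most tested immune peptide genes rose as well. Of 37 listed antimicrobial and Bomanin peptide genes 13 were tested, and 9 of these rose and 0 fell, with a median log2 fold change of 2.88. DptB, 1 of the 9, passed the expression filter only through arrays with tcf∆N-short. BomS2, one of the short peptides released in the Toll response, read 10.07 and 10.10 in tcf∆N-short, against 6.40 and 6.79 in WT (3.49, adjusted p = 0.00865). BomT2 read 5.50 and 6.22, against 2.67 and 2.32 in WT (3.37, adjusted p = 0.00586). SPE, whose protease activates the Toll ligand Spätzle, read 6.64 and 7.32, against 3.97 and 4.71 in WT (2.64, adjusted p = 0.00448), and was the 1 rise among 13 immune recognition and signalling genes. High levels of these genes were not limited to tcf∆N-short. BomS2, BomT2 and SPE averaged 11.24, 7.38 and 8.19 in arm∆N, against 10.08, 5.86 and 6.98 in tcf∆N-short. The count of 9 fell to between 4 and 6 in the 4 fits without an array, with 5 without either tcf∆N-short array, 4 without WT replicate 1 and 6 without WT replicate 2. TotA, a stress-induced humoral factor, read 5.52 and 6.41, against 2.31 in both WT arrays (3.66, adjusted p = 0.00586). In arm∆N it averaged 2.32. Of 4 tested Turandot genes, TotA and TotC rose (TotC 1.17, adjusted p = 0.0358), TotE was at -0.50 and TotF at -1.04, neither called, and without WT replicate 2 the counts were 2 higher and 2 lower. The TotC call was lost without tcf∆N-short replicate 1 (adjusted p = 0.153) and without WT replicate 1 (adjusted p = 0.127), and TotC and TotE passed the expression filter only through arrays with tcf∆N-short. The 13 tested hemocyte markers averaged 6.71 and 7.11 in tcf∆N-short, against 7.14 and 7.31 in WT. Of these markers 0 were higher and 1 lower, near the 2.54% and 5.23% of all tested genes. Their part in the rise of the peptides was not tested. In apoptosis genes 0 of 12 rose, where 2.54% of all tested genes did. Buffy was lower at -1.63 (adjusted p = 0.0773), but was not called without tcf∆N-short replicate 1 (-1.19) or without WT replicate 1 (-1.11). rpr was not called, at 0.50 (adjusted p = 0.446).

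The largest fall was that of Muc26B, a mucin gene, which read 3.03 and 3.36 in tcf∆N-short, against 10.37 and 10.33 in WT, a log2 fold change of -7.15 with a standard error of 0.59 (adjusted p = 6.43e-05). CG4830 read 3.12 and 2.95, against 9.68 and 8.79 in WT (-6.20, adjusted p = 0.00087), and Acbp4, an acyl-CoA-binding protein gene, read 3.15 and 4.37, against 10.18 and 9.73 in WT (-6.20, adjusted p = 0.0004). CG7017 fell by 5.92, CG14302 by 5.70, CG43896 by 5.57 and CG7715 by 5.43. These 7 genes read 5.04 or less in every tcf∆N-short array, against 8.79 or more in every WT array. CG4830, Acbp4 and CG14302 were also low in Wg++, where they averaged 3.22, 4.73 and 4.76. Muc26B, CG7017, CG43896 and CG7715 averaged 9.98, 11.45, 8.12 and 9.74 in Wg++. The other genes of the 15 largest falls were CG12934, CG4563, CG14300, CG17826, CG5084, CG8562, CG14265 and Jon65Aiii, from -5.34 to -3.69.

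Of 18 tested genes for the peritrophic matrix, the chitin and protein sheath that lines the midgut, and for related chitin-binding proteins, 9 fell and 0 rose. Their median log2 fold change was -1.16, and 5.23% of all tested genes fell. Some of the listed genes, CG13806, CG7252 and Peritrophin-15a among them, were picked by the study from these arrays, so the count is not independent evidence of its direction. CG13806 read 2.75 and 3.01 in tcf∆N-short, against 6.58 and 6.33 in WT (-3.57, standard error 0.22, adjusted p = 7.28e-06). obst-J read 3.19 and 4.15, against 7.34 and 6.96 in WT (-3.48, adjusted p = 0.000752), and CG10725 read 4.60 and 4.46, against 7.74 and 8.19 in WT (-3.43, adjusted p = 0.00703). Peritrophin-15a read 2.94 and 3.08, against 7.16 and 5.80 in WT (-3.47, adjusted p = 0.0137), but was not called without WT replicate 1 (-2.79, adjusted p = 0.107). The count of falls was 6 without tcf∆N-short replicate 1 and without WT replicate 1. The study designed primer pairs for quantitative PCR after chromatin immunoprecipitation at 3 of these genes, all on 3L. They are shown as the study lists them, and their positions were not mapped here.
CG13806 forward: cactttgcccaactcccatc
CG13806 reverse: gtgacagcaataaaagtcccg
obst-J forward: taaggtcaagatgcggctga
obst-J reverse: tcgaatccgtttcccgtcaa
CG10725 forward: cacggaatcaaaacaaatcgca
CG10725 reverse: tacctcgaaaaacccctcca

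Of the 7 tested obstructor genes, a family of secreted chitin-binding proteins that includes obst-J, 4 fell and 0 rose, with a median of -1.92 and the same count whichever array was left out. obst-H read 2.33 and 2.36 in tcf∆N-short, against 5.28 and 5.92 in WT (-3.26, adjusted p = 9.89e-05). obst-F read 2.59 and 2.45, against 5.98 and 5.39 in WT (-3.16, adjusted p = 0.000195). Both lay near the lowest value in tcf∆N-short only.

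Of 57 tested cuticle protein genes with the Rebers-Riddiford chitin-binding motif, 14 fell and 1 rose, with a median log2 fold change of -0.50. Lcp65Aa read 2.40 and 2.36 in tcf∆N-short, against 6.19 and 5.53 in WT (-3.48, adjusted p = 0.000394), Cpr100A read 4.01 and 5.02, against 7.91 and 7.44 in WT (-3.16, adjusted p = 0.00255), and Cpr47Eb, the exception, read 8.97 and 9.25, against 5.80 and 4.64 in WT (3.89, adjusted p = 0.00701). Of 21 tested Tweedle genes, a second family of cuticle proteins, 8 fell and 0 rose, with a median of -1.47. TwdlB read 7.99 and 9.51, against 11.89 in both WT arrays (-3.14, adjusted p = 0.00563). Of 13 tested Osiris genes 3 fell, with a median of -1.34, and of 23 genes for chitin assembly 3 fell, with a median of -0.51. The share of falls among all tested genes was 5.23%. Cda9, a chitin deacetylase gene, read 2.41 and 2.36, against 5.35 and 5.14 in WT (-2.86, adjusted p = 0.00234). neo and dyl, which encode membrane proteins of the apical matrix, were the 2 falls among 15 denticle and apical matrix genes, at -2.03 (adjusted p = 0.0345) and -1.41 (adjusted p = 0.0951), and ovo, which directs denticle formation, was not called, with 9.15 and 8.28 in tcf∆N-short, against 8.06 and 8.50 in WT (0.43, adjusted p = 0.526).

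These cuticle counts depended on single arrays. Without tcf∆N-short replicate 1, 7 Rebers-Riddiford genes, 1 Tweedle gene, 0 Osiris genes, 1 chitin assembly gene and 0 denticle genes were called lower, neo (adjusted p = 0.134) and dyl (adjusted p = 0.339) not among them. With replicate 2 left out instead these numbers were 19, 12, 2, 6 and 1. Without WT replicate 1 they were 7, 5, 2, 2 and 4, and without WT replicate 2 they were 10, 4, 0, 1 and 0. The 7 tested epidermis markers averaged 6.36 and 6.51 in tcf∆N-short, against 6.15 and 6.79 in WT. 0 of them were called, where 7.77% of all tested genes were, and 1 had an unadjusted p under 0.05 in limma.

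Of 14 tested known Wingless target and feedback genes, 6 fell and 0 rose, where 5.23% of all tested genes fell. The log2 fold change was negative in all 14, and the median was -0.92. lbl, a homeobox gene that Wingless turns on in the epidermis, read 2.76 and 2.53 in tcf∆N-short, against 4.33 and 4.05 in WT (-1.54, adjusted p = 0.000413). fz3, a Frizzled receptor gene induced by Wingless, read 4.64 and 3.64, against 5.85 and 6.11 in WT (-1.84, adjusted p = 0.0057). wg itself read 5.40 and 5.31, against 6.43 and 6.40 in WT (-1.06, adjusted p = 0.0655), and en, which Wingless maintains, read 6.28 and 6.78, against 7.59 and 7.46 in WT (-1.0, adjusted p = 0.0439). The calls of lbl and fz3 held without any of the arrays. wg was called in none of those 4 fits (adjusted p between 0.136 and 0.241), and en was not called without tcf∆N-short replicate 1 (-0.74, adjusted p = 0.317) or WT replicate 1 (-0.93, adjusted p = 0.18). The count of 6 became 2 without tcf∆N-short replicate 1, 4 without tcf∆N-short replicate 2 and 3 without either WT array. The feedback genes nkd and Notum were not called, at -0.89 (adjusted p = 0.128) and -0.57 (adjusted p = 0.233).

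Among 15 tested core components of the Wnt pathway, pan, whose probeset may read the transgene itself, was the 1 gene called. Over all tested genes 7.77% were called. The list median was 0.12, with the others from -0.69 in Wnt6 upwards. In the planar polarity list 4 of 11 genes fell. otk2, a co-receptor gene for Wnt ligands, read 4.95 and 5.64 in tcf∆N-short, against 6.53 and 7.0 in WT (-1.47, adjusted p = 0.032), and otk read 5.58 and 6.17, against 6.69 and 7.33 in WT (-1.13, adjusted p = 0.0604). When tcf∆N-short replicate 1 was left out 0 of the 11 were called (otk2 adjusted p = 0.243, otk 0.384), against 4 without tcf∆N-short replicate 2, 3 without WT replicate 1 and 1 without WT replicate 2. hh, which encodes the Hedgehog ligand, read 4.31 and 4.25, against 5.29 and 5.41 in WT (-1.07, adjusted p = 0.0796), the 1 call among 14 segment polarity and ligand genes, and it was lost in all 4 fits that lacked an array (adjusted p between 0.156 and 0.287). ptc, its receptor and target, was not called, at -0.01 (adjusted p = 0.999).

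In several broad lists few or no genes were called. Over all tested genes 7.77% were called, 2.54% higher and 5.23% lower, so few or no calls in the shorter lists lie near that share. For 25 cell cycle genes 0 were called, 4 with an unadjusted p under 0.05 in limma, and the median was 0.45. For 38 cytosolic ribosomal protein genes 0 were called, 1 with an unadjusted p under 0.05 in limma, and the median was -0.02. For 6 Hox genes and cofactors 0 were called, 1 with an unadjusted p under 0.05 in limma, and the median was -0.45. Of 69 mitochondrial ribosomal protein genes 2 fell, with 65 log2 fold changes below 0 and a median of -0.38, and the count was 0 without tcf∆N-short replicate 1, 0 without WT replicate 1 and 9 without WT replicate 2. ImpE1, an ecdysone-inducible gene, read 6.53 and 6.12 in tcf∆N-short, against 7.69 and 8.70 in WT (-1.87, adjusted p = 0.0047), 1 of 2 falls among 20 ecdysone genes. wrapper, a glial gene, read 3.20 and 3.67, against 5.10 and 4.72 in WT (-1.47, adjusted p = 0.0248), but was not called without tcf∆N-short replicate 1 (-1.24, adjusted p = 0.192) or WT replicate 1 (-1.28, adjusted p = 0.141). The 4 tested muscle markers averaged 6.16 and 6.38 in tcf∆N-short, against 6.20 and 6.72 in WT, and the 3 tested tracheal markers 7.53 and 7.89, against 7.65 and 8.02 in WT.

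**Figure D4:**
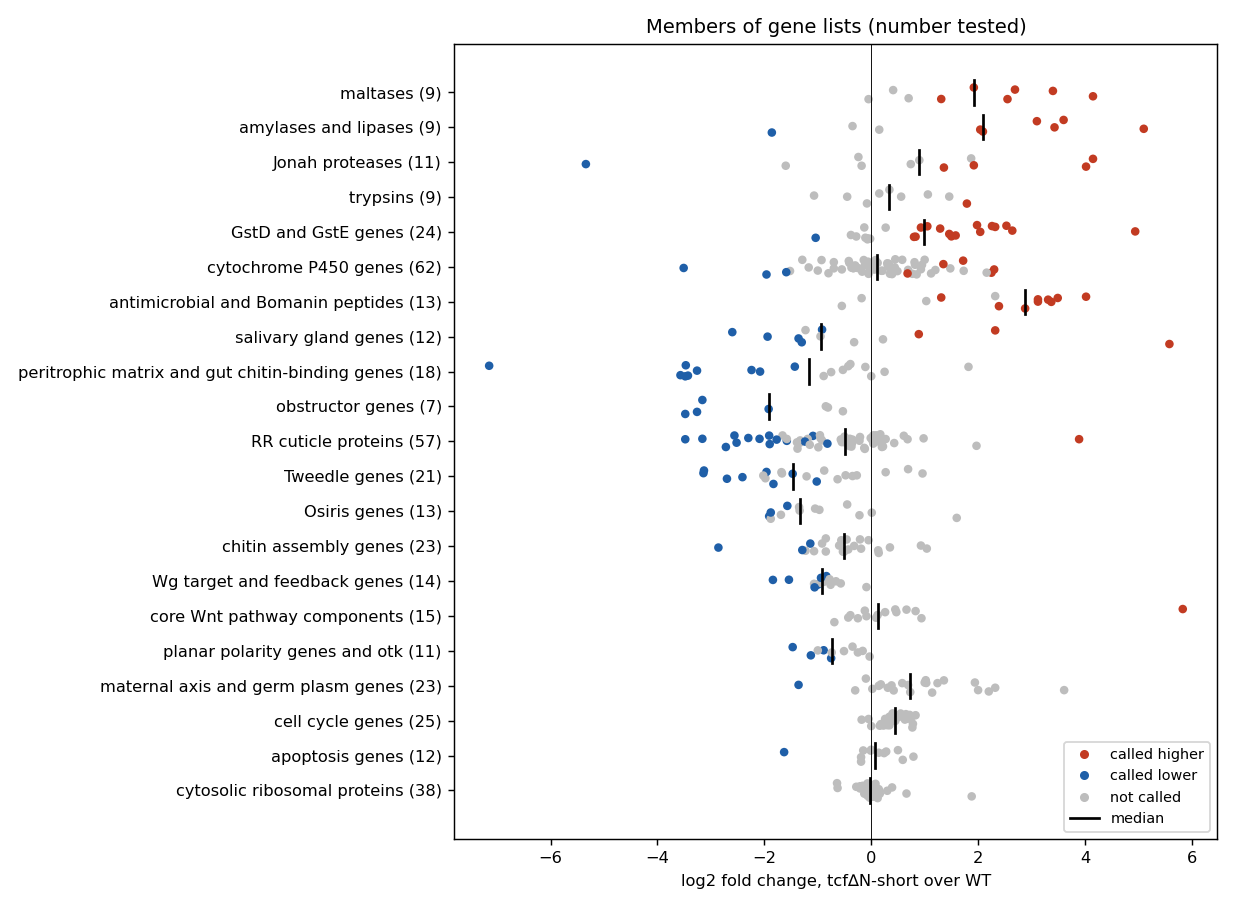
The log2 fold change of tcf∆N-short over WT is shown for each tested member of 21 gene lists, with the number tested in brackets, calls in red (higher) or blue (lower) and the list median as a black bar. The maltases, lipases, GstD and GstE genes and immune peptides lie mostly to the right of 0, and the peritrophic, obstructor, Tweedle and Wg target genes mostly to the left.

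Called genes often sat next to each other. Of the 225 higher genes, 65 (28.9%) had an adjacent tested gene that was also higher, where 4.7% of all tested genes lay beside a higher gene. Of the 464 lower genes the number was 96 (20.7%), where 9.98% of all tested genes lay beside a lower gene. Besides the GstD genes, the longest runs of higher genes were BomS4, BomBc2, BomS2, BomT2 and BomS5, then GstE5, GstE6, GstE7 and GstE9, Mal-A1 to Mal-A4, and CG31300, CG31104, CG13658 and CG11893. The longest runs of lower genes held 3, such as TwdlP, TwdlB and TwdlL. Most of these runs are made of related genes. By chromosome arm, the share of tested genes that rose ranged between 1.48% on X and 3.46% on 3R, and the share that fell ranged between 1.56% on 4 and 6.24% on 3R.

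Genes tied to the crosses were read on their own. w, the eye colour gene that marks many transgenes, read 6.36 and 7.09 in tcf∆N-short, against 5.03 and 4.75 in WT (1.83, adjusted p = 0.00762). Mocs1, a gene beside the attP2 site on 3L, was called at 0.87 (adjusted p = 0.0925) but in none of the 4 fits that lacked an array (adjusted p between 0.18 and 0.251). bcd read 6.13 and 5.27, against 2.71 and 4.68 in WT, and was not called (2.00, adjusted p = 0.162).

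Some of these genes also differed in tcf∆N-short from tcf∆N-long. Against tcf∆N-long, 284 genes were called in tcf∆N-short (3.2%), 97 higher (1.09%) and 187 lower (2.11%), and these included 80 of the 225 genes higher than in WT and 91 of the 464 lower than in WT. Both comparisons use the same tcf∆N-short arrays, so the calls are not independent. The count was 111 when tcf∆N-short replicate 1 was left out, without tcf∆N-short replicate 2 it was 601, and without tcf∆N-long replicate 1 or replicate 2 it was 104 or 96. CG13445, CG31698, Jig, Sgs5 and CG10853 read between 2.29 and 2.44 in both tcf∆N-long arrays, and the difference of tcf∆N-short minus tcf∆N-long was 6.60 for CG13445 (adjusted p = 2.84e-05) and 5.58 for Sgs5 (adjusted p = 2.84e-05). CG14851 read 10.39 and 11.44 in tcf∆N-short, against an intermediate 4.70 and 6.10 in tcf∆N-long (5.51, adjusted p = 0.000223). CG8562, a predicted carboxypeptidase gene, read 4.10 and 5.05 in tcf∆N-short, against 9.08 and 9.43 in tcf∆N-long (-4.69, adjusted p = 0.000269), and TwdlB, Cpr100A and CG10725 were also lower than in tcf∆N-long, at -2.63, -2.96 and -3.13.

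For other genes no difference between the forms was called. CG17191 read 6.86 and 6.92 in tcf∆N-long, and the difference of tcf∆N-short minus tcf∆N-long was 0.59 (standard error 0.17, adjusted p = 0.139). Bace read 10.43 and 10.35 (0.84, standard error 0.36, adjusted p = 0.337). lbl read 2.82 and 2.51 in tcf∆N-long (-0.02, standard error 0.17, adjusted p = 0.977), and 0 of the 14 Wg target and feedback genes were called between the forms, with a median difference of -0.42. obst-H, obst-F, Lcp65Aa and Cda9 were likewise not called, with differences between -0.77 and -0.24. Of the genes higher than in WT, Jon74E and CG16727 were lower in tcf∆N-short than in tcf∆N-long.

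Between tcf∆N-short and arm∆N-tcf∆N-short, 15 of 8866 genes were called (0.169%), 6 higher (0.0677%) and 9 lower (0.102%) in tcf∆N-short, with an unadjusted p under 0.05 in 523. Leaving out tcf∆N-short replicate 1 gave 8 calls. CG17191 was higher in tcf∆N-short, with 7.40 and 7.55, against 6.27 and 6.17 in arm∆N-tcf∆N-short (1.25, adjusted p = 0.02), and so were LysX, a lysozyme gene, GstD5 and GstD6. Sgs5 read 7.96 and 8.97 in arm∆N-tcf∆N-short (tcf∆N-short minus arm∆N-tcf∆N-short -0.60, standard error 0.36, adjusted p = 0.881), and Muc26B read 2.57 and 2.73 (0.54, standard error 0.59, adjusted p = 0.925). In 70 of the 225 higher genes all 4 arrays with tcf∆N-short, alone or with arm∆N, lay above the other 12 arrays of the series, as in 91 of all 8866 tested genes, and in 55 of the 464 lower genes they lay below them, as in 69 of all tested genes. The calls themselves used 2 of the 4 arrays, so these counts are not independent of them. Of the 225 higher genes, 20 passed the expression filter only through those 4 arrays, which by itself favours such a position. Among them, Sgs5, Sgs5bis and CG10853 read 2.29 on every one of the other 12 arrays.

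**Figure D5:**
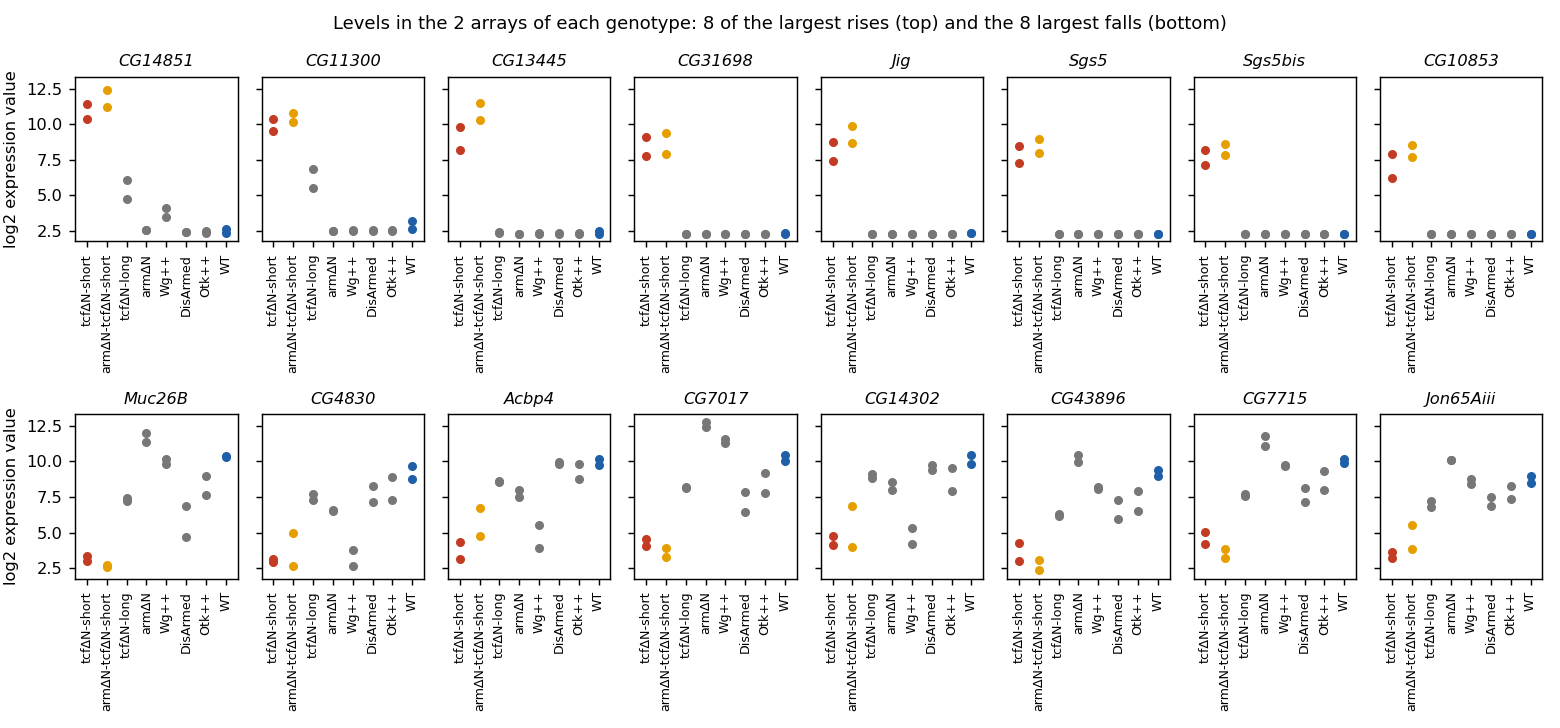
Log2 expression values in the 2 arrays of each of the 8 genotypes, for 8 of the largest rises (top row) and the 8 largest falls (bottom row), with tcf∆N-short in red at the left, arm∆N-tcf∆N-short in orange, WT in blue at the right and the other genotypes in grey. The genes of the top row are high in the 4 arrays with tcf∆N-short, and CG14851 and CG11300 are at an intermediate level in tcf∆N-long. The top row was picked from the 15 largest rises and leaves out pan, CG17191, Bace, GstD2 and Prx6c, which rose more than CG10853. Of those left out, Bace, Prx6c and CG17191 averaged 10.39, 9.57 and 6.89 in tcf∆N-long, and Prx6c averaged 10.36 in Otk++. In the bottom row CG4830, Acbp4 and CG14302 are also low in Wg++, at means of 3.22, 4.73 and 4.76.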

How the data were processed

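RNA was measured on Affymetrix Drosophila 2 arrays. The authors normalised them with GC-RMA (version not given in the sources used here), and the deposited values are log2 expression values per probeset, which carry no read depth. With 2 arrays per genotype the precision is limited by their number. Of 18952 probesets (183 of them controls), 13647 had 1 gene in the platform's annotation, 402 had several and 4903 had none. Probesets of TotA, fz3, pan, rpr, w and wg were named through a table of the study. Gene names, arms and order came from the Release 6 plus ISO1 MT gene table. Following the study's methods, each gene was represented by its probeset of largest interquartile range, and genes above 2.5 in at least 2 of 16 arrays were tested.

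All 16 arrays entered a linear model of limma 3.58.1 (R 4.3.3), each genotype having its own coefficient (8 residual and 2.72 prior degrees of freedom). Genes were called at a fold change above 1.5 and a Benjamini-Hochberg false discovery rate under 10%. The p-values measure the spread between the labelled biological replicates. The fit was tested on simulated data with independent noise in each array, so variation shared by same-numbered arrays was not covered.

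Named genes were the 15 largest rises and falls among calls without overlap, per gene list up to 5 members by adjusted p and those at the ends of its range, the 5 largest differences from tcf∆N-long, and genes of the pathway, crosses and study text. Genes named in runs, or to complete a count, were picked with their values in view. The members and lists were chosen with earlier results of these data known.

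Alternatives were other filters, probeset choice, prior, normalisation between arrays, a replicate block, a fit of 2 groups, a stricter rate and leaving out each array.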

Additional observations from a re-analysis of the deposited data

How the results depend on the processing

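No called named gene changed direction in any alternative, and of 138 called named genes 52 kept their call in every one. Named genes that were not called did change sign, as RpL3, at 1.88 and at -0.08 without WT replicate 1. Of 689 genes called in tcf∆N-short against WT, 430 passed a false discovery rate under 5%, and 81 were called when only the arrays of the 2 groups were fitted, a fit with fewer arrays to estimate the spread. The other filters, cyclic loess, the other prior and the other choice of probeset gave between 501 and 702 calls. Against tcf∆N-long, 284 calls became 164 at 5%, 169 with no expression filter and 16 with only the 2 groups. Against arm∆N-tcf∆N-short, 15 calls became 8 among genes above 4 in at least 2 arrays and 0 with only the 2 groups, where limma gave the spread from 4 arrays. Leaving out 1 array gave between 272 and 846 calls against WT, between 96 and 601 against tcf∆N-long and between 8 and 18 against arm∆N-tcf∆N-short. The array left alone was assumed to vary like the other groups.

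Replicate numbers are shared by all genotypes, but the labels tie them to no common batch. Over 28 pairs of genotypes the correlation of same-numbered arrays ranged between -0.527 and 0.675, 20 of them above 0.1, and was 0.255 for tcf∆N-short and WT. For tcf∆N-short it was higher with the other 2 genotypes compared, at 0.6645 with tcf∆N-long and 0.6753 with arm∆N-tcf∆N-short. With the replicate number as a block, 1167 genes were called against WT, 418 higher and 749 lower, 742 against tcf∆N-long and 22 against arm∆N-tcf∆N-short. Against WT, the block added 39 calls among the named genes and moved 34 counts of list members by over 1.5 times, with 84 within that, so a gene or list count given as not called may be called under it. The planned search of promoters for motifs was not run, since no promoter sequence was at hand. Values close to the lowest on the arrays limit the sizes of changes in dim genes.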
